A study of Homo sapiens with 12 samples.

Results

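The 46 genes described here encode cytosolic translation initiation and elongation factors, the proteins that load ribosomes onto mRNA and then move them along it. They were chosen by name, as the rows of the authors' count table that carry these symbols, among 59653 genes in all. Elongation factors of the EEF1 and EEF2 families and subunits of eIF3 (19 genes) are set beside the other 27 members, since many mRNAs of these families are known to belong to the terminal oligopyrimidine (TOP) class. The samples are labelled as human neurons made from induced pluripotent stem cells of IMR-90, a fibroblast line, while NPC, left unexplained, stands in every sample title. In 6 libraries the cells had received a negative control siRNA (siNC), and in 6 an siRNA against ZCCHC17 (siZCC), which encodes a zinc-knuckle RNA-binding protein. Total RNA was sequenced. All cells came from 1 line, the labels name a single siRNA treatment per group, and they do not say whether replicates were separate cultures, so p-values measure the spread between these libraries, which may be technical. Differentiation protocol, dose and time are not given in the sources used here.

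As background, most mRNAs are translated after eIF4E binds the cap at their 5′ end. The scaffold eIF4G then joins eIF4E to the helicase eIF4A, to poly(A) binding protein and, through eIF3, to the small ribosomal subunit, while 4E-binding proteins compete with eIF4G for eIF4E. eIF2 brings the initiator tRNA and is recharged with GTP by eIF2B, and eIF1, eIF1A and eIF5 act when the start codon is chosen. In elongation, eEF1A delivers aminoacyl-tRNA, the eEF1B complex recharges eEF1A, and eEF2 moves the ribosome forward by a codon. TOP mRNAs begin with a C and an unbroken run of C and T bases, include the mRNAs of nearly all cytosolic ribosomal proteins, and are translated under the control of the mTOR pathway and LARP1. In neurons, local and activity-dependent protein synthesis is a well-known site of control of these factors.

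Between 90755953 and 120023356 counts were assigned per siNC library and between 76115083 and 105389055 per siZCC library. ZCCHC17 itself ran from 54.0 to 61.0 counts-per-million (CPM, scaled by TMM factors throughout) in siNC libraries and from 9.37 to 10.6 CPM after its siRNA, a log2 fold change of -2.51 (SE 0.0402). Neuron markers were present, at a summed 3234 to 3640 CPM in siNC and 2964 to 3345 CPM in siZCC, and 1 of 12 rose and 5 fell. Of the other marker lists, neural progenitor markers summed to 5751 to 6132 CPM in siNC and 5802 to 6327 CPM in siZCC (3 of 8 rose, 1 fell), and proliferation markers to 714 to 797 CPM against 576 to 671 CPM (7 of 8 fell). Astrocyte markers summed to 1177 to 1338 CPM against 1256 to 1515 CPM (3 of 7 rose, 1 fell), oligodendrocyte lineage markers to 147 to 184 CPM against 150 to 184 CPM (1 of 5 tested fell), fibroblast markers to 179 to 408 CPM against 156 to 287 CPM (1 of 6 rose, 2 fell), pluripotency markers to 15.4 to 17.0 CPM against 19.99 to 21.9 CPM (2 of 3 tested rose), and microglia markers to 1.35 to 2.58 CPM against 1.41 to 2.43 CPM (0 of 3 tested called). Neural progenitor markers thus summed to more than neuron markers in every library, beside the label of neurons. That order rests on VIM alone, at a mean of 3550 CPM in siNC and 3595 CPM in siZCC. Without VIM the progenitor markers summed to less than the neuron markers. None of the marker genes was at 0 in every library. In bulk RNA, fewer cells of a type and less RNA per cell cannot be told apart, and the part of these marker differences in the values of translation factors was not tested. The libraries also split by IL1B, at 5.23 to 16.0 CPM in siNC 2, 3 and 6 and siZCC 1, 4 and 5 and at 0.0223 to 0.1 CPM in the others, a split that lies across both groups.

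Of the 46 factors, 45 passed the filter on low counts and were tested. After ZCCHC17 siRNA 9 rose and 3 fell at an adjusted p under 0.05 (edgeR quasi-likelihood test, Benjamini-Hochberg over 24671 genes), so 12 of 45 were called, or 26.7%, beside 22.2% of all genes tested. That share is near the background. The share that rose was 20% beside 11.4% of all genes, and the share that fell was 6.67% beside 10.8%. Most factors are abundant, and among all genes that averaged 10 CPM or more, a set chosen after seeing the data, 31.9% were called, above the share among the factors. In that set 17.3% rose and 14.6% fell, so the share of factors that rose lay near that of genes of similar abundance, and among genes of at least 100 CPM 23.2% rose. The changes were small: log2 fold changes ran from -0.18 for EIF4E to 0.23 for EEF2, with a median of 0.03 beside -0.0016 over all genes.

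The families are described by their counts. In the EEF1, EEF2 and EIF3 class 5 of 18 tested genes rose and 0 fell, with a median log2 fold change of 0.06 and 14 of 18 above 0. The share that rose was 27.8%, beside 11.4% of all genes and 23.2% of genes of at least 100 CPM. It was made up of 3 of 5 tested EEF1 and EEF2 genes and 2 of 13 eIF3 subunits. Over the whole class the share above 0 was 77.8%, beside 49.6% of all genes and 57.9% of genes of at least 100 CPM. The DESeq2 Wald test and limma voom also called 0 of them lower, and none of the 4 with a negative fold change had an unadjusted p under 0.05. Among the other 27 factors 4 rose and 3 fell, with a median of -0.01 and 12 above 0. The shares that rose and fell were 14.8% and 11.1%, beside 11.4% and 10.8% of all genes. The split is by gene family, so PABPC1, whose mRNA is of the TOP class, counts among the others that rose. The difference between the classes was not tested, and these counts moved with single libraries. Class members that rose numbered 3 without siNC 4 or siNC 6. Other factors that rose numbered 2 without siNC 1, siNC 4 or siNC 6 and 1 without siZCC 3 or siZCC 6, and those that fell numbered 5 without siZCC 2. In the plot of fold changes by role the tested EEF1 and EEF2 genes all lie to the right of 0. The eIF3 subunits lie between -0.02 and 0.11, and the cap-binding proteins lie furthest to the left.

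**Figure D1:**
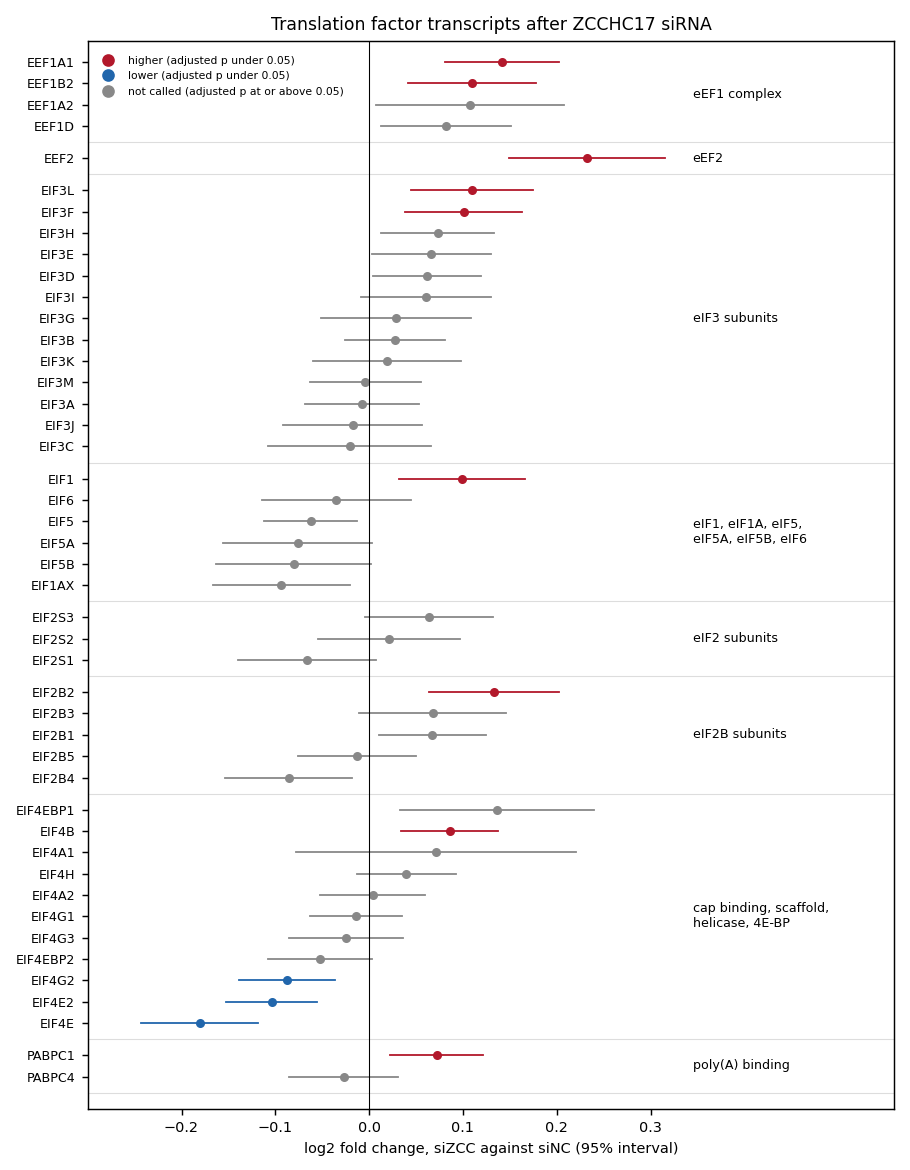
Log2 fold change, siZCC against siNC, of the 45 tested translation factors, grouped by role; points are edgeR estimates and lines their 95% intervals, red for higher, blue for lower and grey for not called. EEF2 at 0.23 and EIF4E at -0.18 mark the ends of the range, and 33 of the 45 factors are grey.

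The elongation factor eEF2, encoded by EEF2 (GRCh38, chr19:3976056-3985469, minus strand), had the largest change of all factors. EEF2 mRNA was at 2175, 2315 and 2513 CPM (lowest, median, highest of 6) in siNC and at 2503, 2748 and 2906 CPM in siZCC. Only siNC 2 reached into the siZCC range, where it lay just above siZCC 2. The rise was 0.23 on the log2 scale (SE 0.0394), or 17.5%, with an edgeR Benjamini-Hochberg adjusted p of 5.14e-04 and an exact two-sided permutation p of 0.00433. EEF2 also passed the test within each side of the IL1B split, at 0.27 in the high libraries and 0.19 in the low ones.

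In the eEF1 complex 2 of 4 tested genes rose and 0 fell, beside 11.4% and 10.8% of all genes. EEF1A1 (chr6:73515750-73523797, minus strand), which encodes the carrier of aminoacyl-tRNA in most tissues, was at 4958, 5171 and 5471 CPM in siNC and at 5541, 5788 and 5958 CPM in siZCC. Every siZCC library lay above every siNC library, which 5.25% of all genes showed. The log2 fold change was 0.14 (SE 0.0288, edgeR Benjamini-Hochberg adjusted p = 0.0021), and the exact permutation p of 0.00216 is the smallest that reassigning the 12 libraries can give. EEF1B2, a subunit of the exchange factor that recharges eEF1A, rose by 0.11 (SE 0.0323, edgeR Benjamini-Hochberg adjusted p = 0.0213), from 112, 115 and 125 CPM to 121, 128 and 129 CPM (lowest, median, highest). Its 3 lowest libraries, siNC 1, 4 and 6, lay apart from the rest, siNC 2 and 3 lay within the siZCC range, and leaving out siNC 1, siNC 4 or siNC 6 took EEF1B2 past the threshold (adjusted p up to 0.0528).

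The remaining eEF1 genes were not called. EEF1A2, the form of eEF1A that replaces EEF1A1 in mature neurons and muscle, had 300, 327 and 352 CPM in siNC and 326, 350 and 377 CPM in siZCC. The groups overlapped widely, and its log2 fold change of 0.11 (SE 0.0475) had an adjusted p of 0.118 by edgeR. Its difference was 0.17 in the IL1B-high libraries and 0.03 in the low ones; that contrast was not tested. EEF1D, another exchange factor subunit, stood at 0.08 (edgeR adjusted p = 0.0822). EEF1G, which encodes the third subunit, had 0 to 2 counts in each library and did not pass the filter: in GENCODE v29 99.9% of its exon bases lie under another gene on the same strand, AP002990.1, at 1.14 CPM in siNC. Whether this overlap set the low count of EEF1G was not tested, and the row is not read as a level of its mRNA.

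EEF1A1 has many processed pseudogenes, with which reads can be shared. The table holds 39 rows named as EEF1A1 pseudogenes, of which 22 were tested, 12 rose and 1 fell. Over all genes tested 11.4% rose and 10.8% fell. As these rows may hold reads of EEF1A1 itself, they are not read as separate genes that rose. Together all 39 rows summed to 161 ± 15.4 CPM with siNC against 200.3 ± 15.9 CPM with siZCC (SD, n = 6). That was 2.61% to 3.65% of the counts of the gene and its copies. EEF1A1P5 alone held 79.6 CPM in siNC, with a log2 fold change of 0.33. Adding all copies to the gene gave a log2 ratio of mean CPM, siZCC to siNC, of 0.15, beside the edgeR estimate of 0.14 for the gene by itself. The copies are so small a part of the sum that they could move this ratio only a little. Multi-mapping settings of the counting are not given in the sources used here.

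eIF3, a complex of 13 subunits, binds the small ribosomal subunit. EIF3L and EIF3F rose, 0 subunits fell, and 9 of 13 had a log2 fold change above 0, with a median of 0.03. The share that rose was 15.4%, beside 11.4% of all genes and 17.3% of genes of at least 10 CPM. The share above 0 was 69.2%, beside 49.6% and 51.6%. EIF3L was at 163.8, 171.7 and 178.4 CPM in siNC and at 178.4, 183.2 and 193.4 CPM in siZCC. The highest siNC library lay just above the lowest siZCC library, and the other libraries did not mix. The rise was 0.11 (SE 0.0309, edgeR Benjamini-Hochberg adjusted p = 0.0173, exact permutation p = 0.00433), but 41.1% of the exon bases of EIF3L lie under another annotated gene, so its counts are less certain.

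EIF3F, which encodes a subunit of the structural core of eIF3, was at 221, 229 and 236 CPM in siNC and at 235, 244 and 255 CPM in siZCC. Only the top siNC library passed the lowest siZCC library. On the log2 scale it rose by 0.10 (SE 0.0295, edgeR Benjamini-Hochberg adjusted p = 0.0207). The call was lost without siNC 4 or siNC 6 (edgeR adjusted p up to 0.0504) and with no filter on low counts. It was also lost when GC content and transcript length were corrected for, where the fold was as large (0.11, edgeR adjusted p = 0.062). The next subunits were EIF3H at 0.07 (edgeR adjusted p = 0.0758), EIF3E at 0.07 and EIF3D at 0.06. The large subunits EIF3A, EIF3B and EIF3C stood at -0.0075, 0.03 and -0.02, and the loosely bound EIF3J at -0.02. EIF3C was counted at only 2.03 CPM per kilobase of merged exons in siNC, beside 47.6 for EIF3A; its near-identical copy EIF3CL held 3.17 CPM beside the 14.2 CPM of EIF3C, so reads of the 2 genes may have been lost or split in counting.

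**Figure D2:**
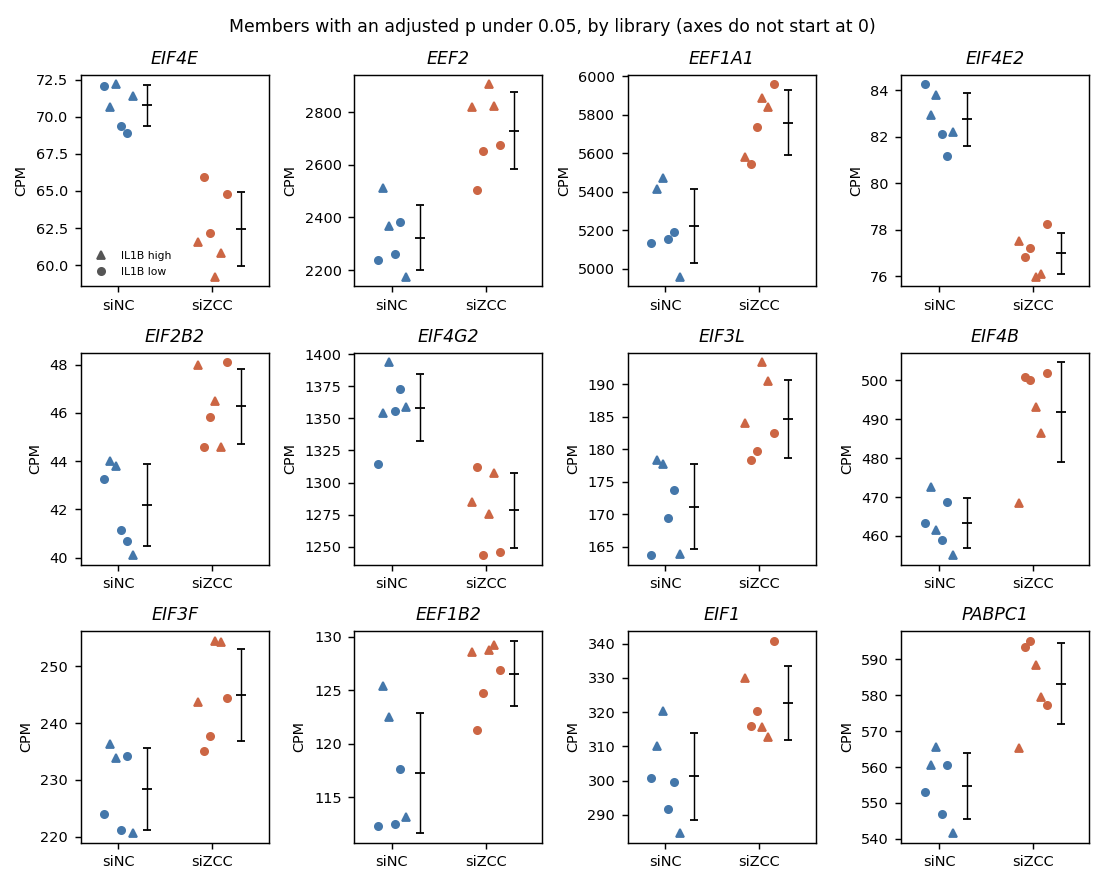
CPM in each of the 12 libraries for the 12 factors with an adjusted p under 0.05; triangles are libraries on the high side of the IL1B split, circles on the low side, and bars give the mean ± SD (n = 6); axes do not start at 0. The groups do not overlap for EIF4E, EEF1A1, EIF4E2, EIF2B2 and EIF4G2. For EEF2, EIF3L, EIF3F, EIF1 and PABPC1, 1 siNC library lies above the lowest siZCC library.

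The sequence at the transcription start was read for the 35 factors found in the RefSeq promoter table (GRCh38.p14); the other 11 were not in it. A run of at least 5 C or T bases that begins with C exactly at an annotated start, a rule chosen after seeing the data and read on the gene's own strand, was found in 10 of the 35. A gene counted if any of its annotated starts matched; EEF1B2 has 2 starts, and the start not shown lacks the run. The sequences below show the members whose results or class turn on it, 15 bases before and 15 from the start onwards, with the run at the start in capitals. The first 5 rose after ZCCHC17 siRNA, and the next 5 carry such a run and were not called.
EEF1A1: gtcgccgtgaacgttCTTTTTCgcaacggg
EEF2: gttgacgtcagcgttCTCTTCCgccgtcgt
EEF1B2: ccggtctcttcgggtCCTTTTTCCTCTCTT
EIF3F: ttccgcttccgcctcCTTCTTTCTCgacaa
EIF4B: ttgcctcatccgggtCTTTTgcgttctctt
EIF3D: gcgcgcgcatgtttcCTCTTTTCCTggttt
EIF3K: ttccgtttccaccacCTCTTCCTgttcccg
EIF3M: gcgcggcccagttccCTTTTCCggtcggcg
EIF4A2: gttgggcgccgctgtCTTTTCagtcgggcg
EIF2S3: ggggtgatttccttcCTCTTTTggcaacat
For comparison, these are the starts of the factor with the largest fall and of EIF2B2, which rose, neither with such a run:
EIF4E: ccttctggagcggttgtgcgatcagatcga
EIF2B2: gacctcgcccgccccggaagtgcaaactgt
The windows lie at chr6:73521018-73521047, chr19:3985449-3985478, chr2:206159880-206159909, chr11:7987322-7987351, chr12:53006441-53006470, chr22:36529152-36529181, chr19:38619173-38619202, chr11:32583816-32583845, chr3:186783562-186783591, chrX:24054941-24054970, chr4:98929119-98929148 and chr14:75002906-75002935, in the order printed; EEF1A1, EEF2, EIF3D and EIF4E are on the minus strand and the others on the plus strand.

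Runs at the start were found in 7 of 12 members of the EEF1, EEF2 and EIF3 class (58.3%) and in 3 of 23 other factors (13.0%). Among cytosolic ribosomal protein genes the share was 47 of 63 (74.6%), and among all genes of the table, counted the same way, it was 5.14%. Of the 10 factors with the run, 5 rose and 0 fell, with a median log2 fold change of 0.07. Of the 24 tested factors without it, 2 rose and 3 fell, with a median of -0.02. Over all genes tested 11.4% rose and 10.8% fell. Shares that rose were 17.3% among genes of at least 10 CPM and 23.2% among those of at least 100 CPM. The share that rose among all genes with such a run was not computed. EIF4B enters only because its run is 5 bases long: at a minimum of 6 at the start, 4 of 9 factors with the run rose and 0 fell. The rule planned first was wider, a run of at least 6 that begins within 10 bases of the start. By that planned rule 19 of 35 factors (54.3%) and 24.6% of all genes held a match. Among those 19 factors 6 rose and 2 fell, with a median log2 fold change of 0.02, and among the 15 tested without a match 1 rose and 1 fell, with a median of -0.02. A match describes these letters only, and annotated starts may differ from those used in these cells.

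EIF4E, which encodes the cap-binding protein, fell, and by more than any other factor. EIF4E (chr4:98871684-98930637, minus strand) was at 68.9, 71.0 and 72.2 CPM in siNC and at 59.2, 61.9 and 65.9 CPM in siZCC. The lowest siNC library stood above the highest siZCC library, which 4.5% of all genes showed in this direction. The log2 fold change of -0.18 (SE 0.0297), or 11.8% lower, had an edgeR Benjamini-Hochberg adjusted p of 4.0e-04 and an exact permutation p of 0.00216. It was -0.24 in the IL1B-high libraries and -0.13 in the low ones, where the smaller fit did not call it (edgeR adjusted p = 0.0982).

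Its relative EIF4E2 (chr2:232550052-232583644, plus strand), which encodes a cap-binding protein that does not bind eIF4G well and is known for repressing translation, fell too. EIF4E2 was at 81.2, 82.6 and 84.3 CPM in siNC and at 75.98, 77.0 and 78.2 CPM in siZCC, 2 tight groups with no overlap. The change was -0.10 (SE 0.0232, edgeR Benjamini-Hochberg adjusted p = 0.00404, exact permutation p = 0.00216). EIF4G2 (chr11:10797050-10809110, minus strand), a scaffold related to eIF4G that lacks the eIF4E binding site, was the third to fall, from 1314, 1357 and 1394 CPM to 1244, 1281 and 1312 CPM. These groups did not overlap either, though the lowest siNC library lay just above the highest siZCC library. Its change was -0.09 (SE 0.0243, edgeR Benjamini-Hochberg adjusted p = 0.0161), a call lost when GC content and transcript length were corrected for (-0.07, adjusted p = 0.107).

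The classical scaffolds, which do bind eIF4E, were not called. EIF4G1 was at 421, 428 and 437 CPM in siNC and at 409, 427 and 430 CPM in siZCC, a log2 difference of -0.01 (SE 0.0232) with wide overlap. EIF4G3 was at 208, 222 and 231 CPM against 212, 218 and 224 CPM, a difference of -0.02 (SE 0.0287). The 95% interval of these and of the other factors that were not called can be read in the plot of fold changes by role.

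Of the eIF4A helicases and the proteins that help them, 1 of 4 rose. EIF4B, which stimulates eIF4A, rose from 455, 462 and 473 CPM to 469, 497 and 502 CPM. Of the siZCC libraries 5 lay above all siNC libraries and siZCC 1 lay among them. The rise was 0.09 (SE 0.0246, edgeR Benjamini-Hochberg adjusted p = 0.0187, exact permutation p = 0.00649), and it was not called without siZCC 3 or siZCC 6 (adjusted p up to 0.0523) or with no filter on low counts. EIF4H, a protein like eIF4B, stood at 0.04 and was not called. EIF4A2, the helicase form abundant in brain, was at 358, 373 and 381 CPM against 363, 371 and 393 CPM, a difference of 0.0036 (SE 0.0268). EIF4A1 was counted at 4.66, 5.23 and 5.95 CPM against 4.98, 5.36 and 6.17 CPM, and per kilobase of merged exons it held 0.983 CPM in siNC beside 60.6 for EIF4A2. Of its exon bases 48.6% lie under other genes, and 13 pseudogene rows held 40.5% to 52.8% of the counts of the gene and its copies. Whether reads of EIF4A1 were lost or split in counting was not tested, so its level is uncertain.

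The 4E-binding proteins, the inhibitors of eIF4E, did not pass the threshold. EIF4EBP1 was at 16.2, 18.4 and 19.8 CPM in siNC and at 18.8, 20.5 and 21.7 CPM in siZCC. Its groups overlapped, and its difference of 0.14 (SE 0.0491) just missed the threshold (edgeR Benjamini-Hochberg adjusted p = 0.0556). It was called in 4 of 11 alternatives, among them the DESeq2 Wald test (adjusted p = 0.0392), and without siNC 2, siNC 3, siZCC 2 or siZCC 5 (edgeR adjusted p from 0.0327). EIF4EBP2, the main form in neurons, was at 206, 217 and 220 CPM against 203, 205 and 216 CPM, a difference of -0.05 (SE 0.0262, edgeR adjusted p = 0.169).

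PABPC1 encodes the main cytoplasmic poly(A) binding protein, whose mRNA is itself of the TOP class. It rose by 0.07 (SE 0.0236, edgeR Benjamini-Hochberg adjusted p = 0.0364), from 542, 557 and 566 CPM to 565, 584 and 595 CPM, with siZCC 1 lying just within the siNC range and the others above it. Its adjusted p was the largest of the 12, and the call was lost without siNC 1, 4 or 6 or without siZCC 2, 3, 4, 5 or 6 (adjusted p up to 0.0976), with upper quartile scaling and with no filter on low counts. PABPC4 was at 93.9, 96.8 and 98.8 CPM against 91.9, 94.1 and 99.3 CPM, a difference of -0.03 (SE 0.0275).

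In the group of eIF1, eIF1A, eIF5, eIF5B, eIF5A and eIF6, EIF1 rose and 5 others were not called. EIF1, which guards the choice of start codon, was at 285, 300 and 320 CPM in siNC and at 313, 318 and 341 CPM in siZCC. The siNC 3 library lay inside the siZCC range and the other siNC libraries lay below it. The rise was 0.10 (SE 0.0320, edgeR Benjamini-Hochberg adjusted p = 0.0341, exact permutation p = 0.0152). It was lost without siNC 1, 4, 5 or 6 or siZCC 1, 3 or 6 (adjusted p up to 0.0916), with upper quartile scaling and with no filter on low counts. The other 5 all had log2 fold changes below 0, at -0.09 for EIF1AX, -0.08 for EIF5B, -0.08 for EIF5A, -0.06 for EIF5 and -0.03 for EIF6. For EIF5, the activator of GTP hydrolysis on eIF2, the groups did not overlap, at 204.1 to 209.7 CPM in siNC and 193.5 to 203.8 CPM in siZCC, yet its adjusted p by edgeR was 0.0676.

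The 3 subunits of eIF2 were not called, at -0.07 for EIF2S1, 0.02 for EIF2S2 and 0.06 for EIF2S3. EIF2S1 differed by -0.15 in the IL1B-high and by 0.01 in the IL1B-low libraries, and EIF2S3 by -0.01 and 0.13; whether the sides differ was not tested. In eIF2B, its exchange factor, 1 of 5 subunits rose. EIF2B2 (chr14:75002911-75012366, plus strand), the beta subunit, was at 40.1, 42.2 and 44.0 CPM in siNC and at 44.6, 46.2 and 48.1 CPM in siZCC. All siZCC libraries lay above all siNC libraries. The change was 0.13 (SE 0.0328, edgeR Benjamini-Hochberg adjusted p = 0.0076, exact permutation p = 0.00216). EIF2B1 and EIF2B3 stood at 0.07 each, EIF2B5 at -0.01 and EIF2B4 at -0.09 (edgeR adjusted p = 0.0657), so subunits of a single complex lay on both sides of 0.

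Across the list, 6 of 45 tested factors had groups that did not overlap, beside 9.74% of all genes. Of these, 2 had siZCC above (EEF1A1, EIF2B2) and 4 had siZCC below (EIF4E, EIF4E2, EIF4G2, EIF5). Among genes of at least 10 CPM, 1674 of 11119 did not overlap, so the factors did not stand above genes of similar abundance. Levels per kilobase of merged exons spread widely. In siNC, EEF1A1 at 878 and EEF2 at 577 CPM per kilobase stood above all others, followed by EIF4G2 at 157, PABPC1 at 117 and EIF4H at 102. Counted low were EIF4E at 5.03, EIF3C at 2.03 and EIF4A1 at 0.983 CPM per kilobase, besides EEF1G. Merged exons hold the bases of all annotated transcripts, used in these cells or not. In the plot of change against level the 2 most abundant factors rose, EIF4G2 fell, PABPC1 rose and EIF4H was not called.

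**Figure D3:**
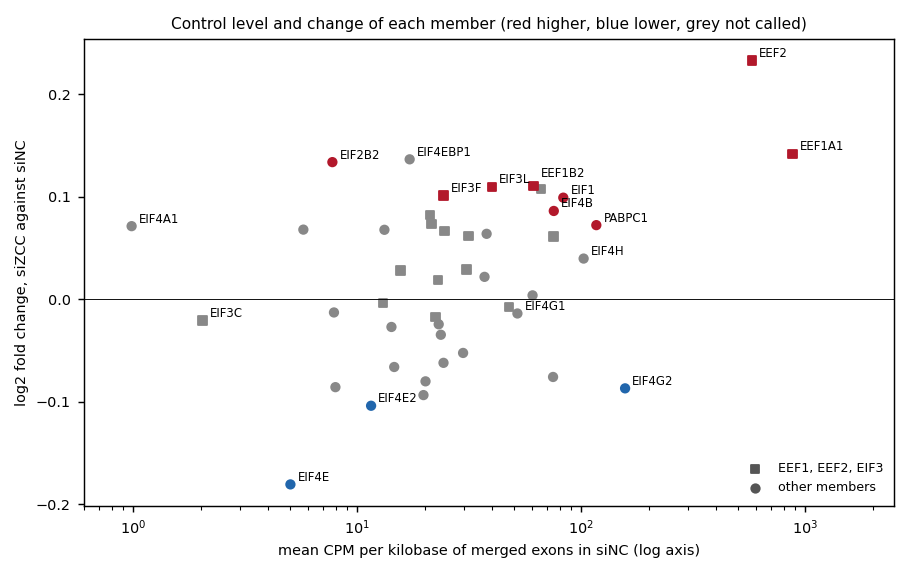
Log2 fold change, siZCC against siNC, of each tested factor against its mean level in siNC (CPM per kilobase of merged exons, log axis); squares are the EEF1, EEF2 and EIF3 class, circles the other factors, red higher, blue lower, grey not called. EEF1A1 (878) and EEF2 (577) are highest in level and both rose, while EIF4G2 (157) and EIF4E (5.03) fell.

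Ratios of paralogs within a library do not move with library scaling. The log2 ratio of PABPC1 to PABPC4 was 2.48 to 2.56 in siNC and 2.58 to 2.68 in siZCC, 0.10 higher with no overlap. The ratio of EIF4EBP1 to EIF4EBP2 was 0.19 higher in siZCC on the log2 scale, with overlap (-3.75 to -3.38 against -3.52 to -3.25). For EIF4E to EIF4E2 it was 0.08 lower by the group means of -0.23 and -0.30, and siZCC 2 lay within the siNC range. The ratios of EEF1A1 to EEF1A2, EIF4G1 to EIF4G3 and EIF4A1 to EIF4A2 differed by 0.03, 0.01 and 0.06 with wide overlap, the last resting on the uncertain counts of EIF4A1. In the plot of these ratios the 3 IL1B-high siZCC libraries have the lowest EEF1A1 to EEF1A2 ratios of their group, an order that was not tested.

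**Figure D4:**
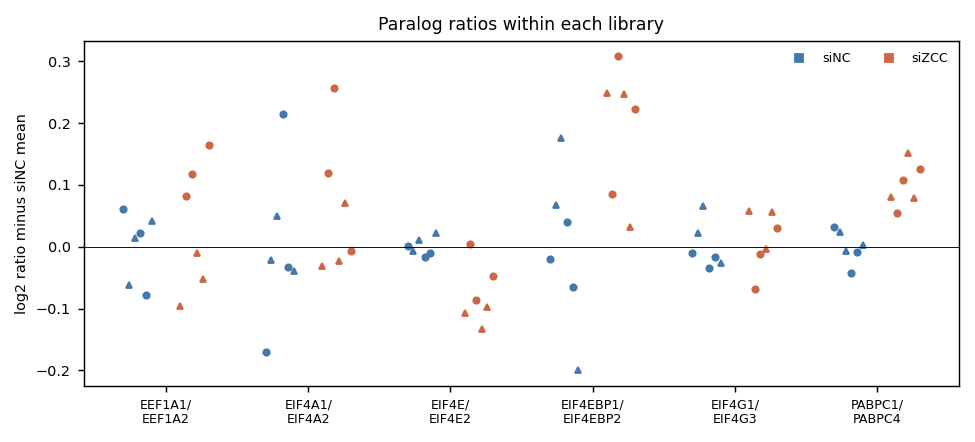
Log2 ratio of 2 paralogs in each library, minus the siNC mean of that ratio; blue siNC, orange siZCC, triangles IL1B-high and circles IL1B-low libraries. The PABPC1 to PABPC4 ratio separates the groups, with all siZCC libraries above all siNC libraries, and the other 5 ratios overlap.

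Class averages show how the factors vary over libraries. The mean log2 CPM of the 18 tested class members was 7.49 ± 0.04 in siNC and 7.55 ± 0.03 in siZCC (SD, n = 6 each), and that of the 27 others was 6.83 ± 0.02 in both. Cytosolic ribosomal protein genes, the main group of TOP mRNAs, stood at 7.97 ± 0.07 and 8.08 ± 0.05. Of 79 tested, 49 rose (62.0%) and 0 fell, with a median log2 fold change of 0.12. Among all genes tested 11.4% rose, and among those of at least 100 CPM 23.2% rose. In both the class and the ribosomal protein genes siNC 2 and 3 were the highest of the siNC libraries and overlapped siZCC, and siNC 6 was the lowest of all 12. No correlation is given, as the averages share libraries and scaling.

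**Figure D5:**
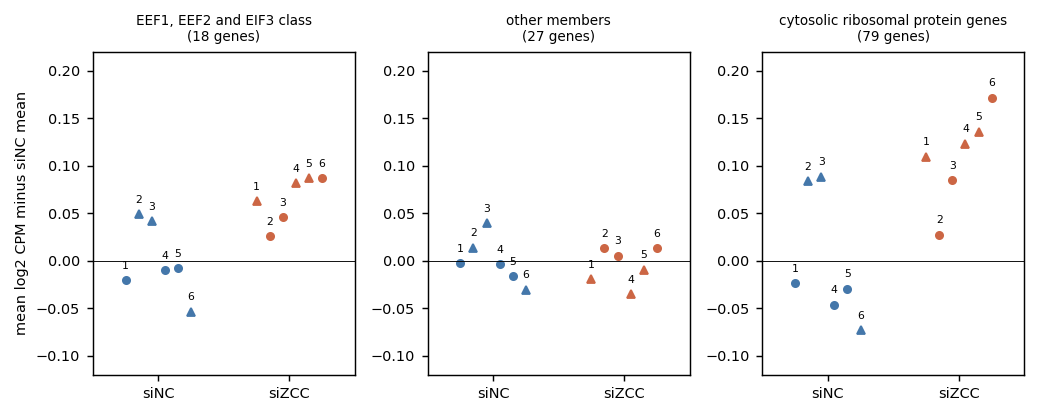
Mean log2 CPM of 3 gene groups in each library, minus the siNC mean; numbers are replicates, triangles IL1B-high and circles IL1B-low libraries. Class members and ribosomal protein genes lie higher in siZCC with overlap from siNC 2 and 3, and the 27 other factors lie around 0 in both groups.

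Other genes of translation, from lists chosen for their function, gave 11 that rose and 5 that fell of 66 tested (24.2% called, beside 22.2%). The shares that rose and fell were 16.7% and 7.58%, beside 11.4% and 10.8% of all genes. Among genes of at least 10 CPM they were 17.3% and 14.6%. Single lists are small, and none was tested against these shares. Among scanning and start codon factors 1 of 8 rose and 2 fell: DHX29, a helicase for structured leaders, fell by 0.19 on the log2 scale (edgeR Benjamini-Hochberg adjusted p = 7.05e-04), and EIF2D, which can bring tRNA without eIF2, rose by 0.16 (edgeR adjusted p = 0.00136). In the mTOR pathway 3 of 9 rose and 0 fell, with MLST8, a subunit of both mTOR complexes, at 0.26 (mean CPM 57.1 ± 3.17 with siNC, 68.4 ± 4.05 with siZCC, SD, n = 6) and RPS6KB2, an S6 kinase, at 0.11. Of 7 cap-binding and 4E-BP relatives 2 rose, LARP1 at 0.09, which binds TOP mRNAs, and MKNK2 at 0.10, a kinase of eIF4E. RACK1, a ribosome-bound protein with a TOP mRNA, rose by 0.16 (edgeR Benjamini-Hochberg adjusted p = 0.00359), the 1 gene of 5 called among other TOP mRNAs.

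Elongation factor relatives gave 1 of 12 that rose and 1 that fell, both methyltransferases of eEF1A (EEF1AKMT3 at 0.14, EEF1AKMT1 at -0.32, the latter near 1 CPM). Of 6 eIF2 kinases and phosphatase subunits, PPP1R15B, which directs the dephosphorylation of eIF2, rose by 0.11. In termination GSPT2, a release factor GTPase, fell by 0.14 (edgeR adjusted p = 0.00124) and 2 of 3 genes were not called. Mitochondrial translation factors gave 2 of 9 that rose, among them TUFM at 0.12, the mitochondrial counterpart of eEF1A, and 1 that fell, MTRF1L at -0.15. Of 7 relatives of poly(A) binding protein 0 were called by edgeR, and 0 had an unadjusted p under 0.05.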

How the data were processed

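The authors deposited whole-number counts per gene symbol for 12 libraries, 6 siNC and 6 siZCC, grouped by their titles. Cells were lysed in Qiazol and libraries made with a directional NEBNext kit, per the labels' protocols; bcl2fastq 2.17, STAR 2.7.6a, featureCounts 2.0.1 and GRCh38 are named in the submitters' processing notes. The annotation, strand and multi-mapping settings are not given in the sources used here.

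The table has 59653 genes and 0 unmapped columns. filterByExpr of edgeR 4.0.16 (R 4.3.3) kept 24671 genes, requiring about 0.0997 CPM. Counts were scaled by TMM and compared by the quasi-likelihood test, with Benjamini-Hochberg adjustment over the genes kept and a threshold of 0.05. The standard error is the log2 fold change divided by the square root of F. Totals of 76115083 to 120023356 counts make counting error small, and the biological coefficient of variation was 6.55%. Class means use log2 CPM with a prior count of 2. Permutation tests were exact, two-sided, over all assignments of the libraries to 2 groups of 6. The test was also run on simulated counts, drawn independently for each library and without the IL1B split, and the outcome is not given here. GENCODE v29 gave positions, merged exon lengths, GC content and overlaps, and the RefSeq promoter table gave start sequences.

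The members, lists, alternatives and naming rule were chosen with earlier results of these data known. The rule gives in full the members called and both genes of each paralog pair, and of each related list the 2 called genes with the smallest p. EIF3 and other members outside it are given by value where a family is described. Alternatives were DESeq2 size factors, upper quartile scaling, 2 other filters, the DESeq2 1.42.0 Wald test, limma voom (limma 3.58.1), a replicate block, the IL1B split as a factor and as separate fits, a GC and length correction, thinning to the smallest total, and leaving out each library. Adjustment over genes of at least 10 CPM, and the run of at least 5 at the start itself, were added after seeing the data. Splicing and protein levels were not analysed here.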

Additional observations from a re-analysis of the deposited data

Results flagged for a closer look

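In groups of 6, a highest or lowest library was singled out where its gap to the nearest other library as a share of the group's range exceeded Dixon's 95% critical value. Of 92 groups examined 3 met this, where chance gives about 4.6. EIF3G was lowest in siZCC 2, at 6.64 log2 CPM beside 6.78 to 6.84 in the other siZCC libraries. EIF4G1 was also lowest in siZCC 2, at 8.68 log2 CPM beside 8.73 to 8.75. The library total of siNC 4 was 90755953 counts beside 109973707 to 120023356 in the other siNC libraries.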

How the results depend on the processing

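Of 276 refits of the 12 called factors (11 alternatives and 12 with 1 library left out each), 240 kept the call and 0 changed direction. EEF1A1, EEF2, EIF2B2, EIF3L, EIF4E and EIF4E2 kept it in all of these, and 7 kept it whichever library was left out. Within the IL1B split, with 3 libraries against 3, all 12 kept their direction on both sides. The high side called 2043 genes and 3 factors (1 class member higher, 0 others higher), and the low side 1602 genes and 2 factors (2 class members higher, 0 others higher, 0 others lower). Other factors that rose numbered 2 with upper quartile scaling and 1 with no filter on low counts. Other factors that fell numbered 6 with upper quartile scaling, 5 with a mean count of at least 50, 5 with the DESeq2 Wald test, 5 after thinning and 6 when adjusted over genes of at least 10 CPM. Class members that rose numbered 8 after the GC and length correction. A run of at least 8 C or T bases near the start was found in 7 factors, beside 19 at 6.

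With the replicate block 4902 genes and 8 factors were called, with 3 class members and 2 others higher; EIF1, EIF3F, EIF4B, EIF4G2, EEF1B2 and PABPC1 were not called. Same-numbered libraries do not deviate together (correlations of -0.08 to 0.02). Yet each same-numbered pair lies on opposite sides of the IL1B split, so these correlations cannot exclude a shared batch. The titles give such libraries only a shared number, and whether they were paired is not known. Leaving out 1 library each gave 4484 to 5626 genes, 8 to 15 factors, 3 to 6 class members higher, 1 to 6 others higher and 3 to 5 others lower. EIF4A2, near 0 at 0.0036, was -0.0049 with upper quartile scaling, -0.0023 with no filter, -0.016 in IL1B-high libraries, -0.0036 after thinning and -0.012 to 0.013 with 1 library left out, and EIF4A1 was -0.0065 in IL1B-high libraries. The causes were not tested. The median of all genes moved by -8.7e-04 on the log2 scale with DESeq2 size factors and by -0.0084 with upper quartile scaling. EEF1G, with 0 to 2 counts, was tested only with no filter on low counts.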
